A study of Mus musculus with 12 samples.

Results

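Transcripts of 4 genes that act beside G protein-coupled receptors, or place protein kinase A in the cell, were followed in mature mouse oocytes with and without Dicer, the enzyme that cuts microRNA and small interfering RNA precursors. Ramp3 and Gprasp1 encode accessory proteins of G protein-coupled receptors, and Akap7 and Akap10 encode anchors of protein kinase A. A probe belonged to a gene if its identifier was a RefSeq mRNA accession of that gene with the version dropped. Each gene had 1 probe, so 4 of 33012 gene probes, and 4 of the 305 gene symbols that accessions could name, were described. The genes were chosen by their function and with their knockout against wild-type fold changes on these arrays already known. Levels and differences between knockout and wild type are therefore a description with no test.

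The study's titles placed 6 arrays in a Dicer Knock-Out group and 6 in a Dicer Wild-type group, all of mature oocytes described as single-cell material. Strain, age, hormone treatment, the way Dicer was deleted and the number of oocytes or females behind an array were not given in the sources used here, so the spread between arrays may be technical. The arrays were 1-colour chemiluminescent arrays hybridized with amplified, digoxigenin-labelled cRNA. The titles number all knockout arrays before all wild-type arrays, so array order and genotype cannot be told apart, and 0 probes could be paired with Dicer1 to check the deletion. Knockout arrays were brighter. The median signal of the 6088 probes that met the detection filter lay between 2736 and 6732 intensity units on knockout arrays and between 1069 and 2580 on wild-type arrays. Of 26 oocyte marker symbols 5 had a probe: Cphx1, Obox1, Obox2 and Obox3 were above background on all 12 arrays, and Mos on 6 knockout and 5 wild-type arrays. Of 17 cumulus and granulosa cell markers only Sfrp4 had a probe, above background on 1 knockout and 0 wild-type arrays at signals of 136 to 734 and 137 to 220.2. Of 12 blood and immune cell markers only Hba-a1 had a probe, above background on 1 array in each group.

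G protein-coupled receptors that raise cyclic AMP activate protein kinase A. In the fully grown mouse oocyte a high level of cyclic AMP made through the receptor Gpr3 keeps meiosis arrested. The mature oocyte has passed this block and carries stored maternal transcripts until the embryo starts its own transcription. Receptor accessory proteins set which ligand a receptor binds, or where it goes after it is taken into the cell. Anchoring proteins hold the regulatory subunits of protein kinase A at membranes, mitochondria or the cytoskeleton, so that the kinase acts near chosen substrates.

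The 4 transcripts were present in oocytes of both groups, and relative to the rest of the array each was lower without Dicer. Signals were compared as log2 values after quantile normalization, which gives every array the same distribution, so that a fold change is relative to the other probes of the array. Ramp3 and Gprasp1 stood at log2 fold changes of -2.19 ± 0.33 and -2.04 ± 0.38, and Akap7 and Akap10 at -1.04 ± 0.23 and -0.83 ± 0.22 (knockout minus wild type, ± SE, n = 6 arrays each). The median over the 4 genes was -1.54 and the median over the 6088 probes was 0.19. Among the 2979 probes above background on all 12 arrays, as the 4 genes were, the median was -0.34, and Akap10 lay -0.49 from it, against -1.02 from the median of all tested probes. A probe was tested in limma if its signal-over-noise score reached 3 on at least 6 arrays. All 4 genes had an adjusted p under 0.05 and a lower level in the knockout, where 22.4% of tested probes did so and 50.4% passed in either direction. Among the 2979 probes above background on all 12 arrays 40.4% passed with a lower level. Nothing is read from these counts, because this comparison was known when the genes were chosen. All 4 genes were also without overlap between the groups, as were 13.1% of tested probes in that direction. The matching share among the 2979 probes was not computed, and nothing is read from this count either.

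Ramp3 showed the largest difference of the 4 genes after quantile normalization. It encodes a single-pass membrane protein that pairs with the calcitonin receptor-like receptor to form an adrenomedullin receptor, and with the calcitonin receptor to form an amylin receptor. Its accession was NM_019511.1. The normalized log2 signal of Ramp3 was lowest at 11.45, had a median of 11.87 and was highest at 13.05 on the knockout arrays, and the matching wild-type values were 13.28, 14.41 and 14.67. Knockout replicate 6 was the highest of its group and wild-type replicate 4 the lowest of its own, and these arrays lay 0.23 apart. The wild-type mean was 4.56-fold the knockout mean (log2 means 12.001 ± 0.59 and 14.19 ± 0.54 in knockout and wild type, SD, n = 6 each). Ranked within each array, Ramp3 was brighter than 48.4% to 69.7% of tested probes on knockout arrays and than 72.01% to 83.7% on wild-type arrays. Ranks of the 4 genes were taken over all tested probes, and not over only those above background on all 12 arrays.

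Gprasp1 encodes a sorting protein that binds the tails of several G protein-coupled receptors and directs them to lysosomes after they are internalized. Its accession was NM_026081.3. The normalized log2 signal of Gprasp1 ran from 9.70 through a median of 11.53 to 12.15 on knockout arrays, and from 12.98 through 13.39 to 13.85 on wild-type arrays. The groups stood 0.83 apart at their nearest arrays, the widest gap among the 4 genes. Knockout replicate 3 was far below the other knockout arrays, and without it the log2 fold change was -1.71. The wild-type mean was 4.13-fold the knockout mean (log2 means 11.35 ± 0.86 and 13.40 ± 0.39, SD, n = 6 each). Within arrays Gprasp1 ranked above 17.4% to 58.5% of tested probes in the knockout group and above 68.7% to 77.5% in the wild-type group.

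The stretches just before the annotated starts of these 2 genes are printed because these transcripts had the lowest fold changes of the 4. Each line gives the 250 bases before the start, 5′ to 3′ on the gene's strand, from the RefSeq tables of build GRCm38.p6. The Ramp3 window is chr11:6658283-6658532 on the plus strand and the Gprasp1 window is chrX:135742442-135742691 on the plus strand. Capitals mark matches on either strand to a cyclic AMP response element (CRE, TGACGTCA), its half-site (TGACG, which lies inside the full element), a GC box (GGGCGG) or a TATA box (TATAAA).
Ramp3: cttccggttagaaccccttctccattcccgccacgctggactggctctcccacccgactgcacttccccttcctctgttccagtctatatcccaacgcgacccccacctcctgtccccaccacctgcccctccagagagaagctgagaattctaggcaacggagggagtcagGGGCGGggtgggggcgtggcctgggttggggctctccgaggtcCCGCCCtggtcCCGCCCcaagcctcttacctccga
Gprasp1: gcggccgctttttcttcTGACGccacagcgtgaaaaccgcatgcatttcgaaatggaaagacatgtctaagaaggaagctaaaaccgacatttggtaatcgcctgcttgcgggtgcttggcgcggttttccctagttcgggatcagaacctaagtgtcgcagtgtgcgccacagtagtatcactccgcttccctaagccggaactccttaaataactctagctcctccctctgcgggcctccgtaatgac
Ramp3 held 3 GC boxes, which began 78, 35 and 24 bases before the start, and Gprasp1 held 1 CRE half-site, which began 233 bases before it. Among 32851 windows of the same length, 32.7% held a GC box, 17.8% a CRE half-site, 12.4% a TATA box and 1.55% a full CRE. The windows contained 65.2% G and C in Ramp3 and 52.4% in Gprasp1, where the median over all windows was 52.4%. Akap7 had 2 annotated starts with 2 and 1 GC boxes, and the Akap10 window, with 70.0% G and C, held 0 matches to the 4 motifs. A match describes letters and not binding.

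Akap7 was lower in the knockout by a smaller step. The gene, also known as Akap18, encodes anchors that range from a short membrane-bound form, known from heart and skeletal muscle for its tie to calcium channels, to longer forms in the cytoplasm and nucleus. Its probe carried NM_018747.2, 1 of 23 transcript accessions that RefSeq lists for the gene, and the sources used here do not give which of these forms the probe reads. The normalized log2 signal of Akap7 was 13.08 at the lowest, 13.72 at the median and 14.12 at the highest knockout array, against 14.29, 14.62 and 14.98 on wild-type arrays. The groups were separated by 0.17 between knockout replicate 1 and wild-type replicate 6. The wild-type mean was 2.05-fold the knockout mean (log2 means 13.62 ± 0.39 and 14.65 ± 0.28, SD, n = 6 each). Akap7 ranked above 69.9% to 79.6% of tested probes within knockout arrays and above 80.8% to 85.7% within wild-type arrays.

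Akap10, also called D-AKAP2 because it binds both types of regulatory subunit of protein kinase A, had the smallest difference of the 4 genes after quantile normalization. Its order against Akap7 turned with cyclic loess (-0.96 against -0.92) and with the scanner software's normalized signal (-0.26 against -0.21). Its accession was NM_019921.2. On knockout arrays the normalized log2 signal of Akap10 ran from 10.39 through a median of 11.04 to 11.31, and on wild-type arrays from 11.44 through 11.77 to 12.21. Knockout replicate 2 and wild-type replicate 4 came within 0.13 of each other, the narrowest gap among the 4 genes. The wild-type mean was 1.78-fold the knockout mean (log2 means 10.96 ± 0.32 and 11.80 ± 0.32, SD, n = 6 each). Within arrays Akap10 ranked above 29.1% to 47.3% of tested probes in the knockout group and above 50.2% to 59.6% in the wild-type group. On wild-type arrays the scanner error was 9.51% to 17.4% of the Akap10 signal, against at most 7.03% for Ramp3, 4.42% for Gprasp1 and 5.32% for Akap7. On knockout arrays it was 5.55% to 8.02% for Akap10, and Gprasp1 reached 11.0% there.

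**Figure D1:**
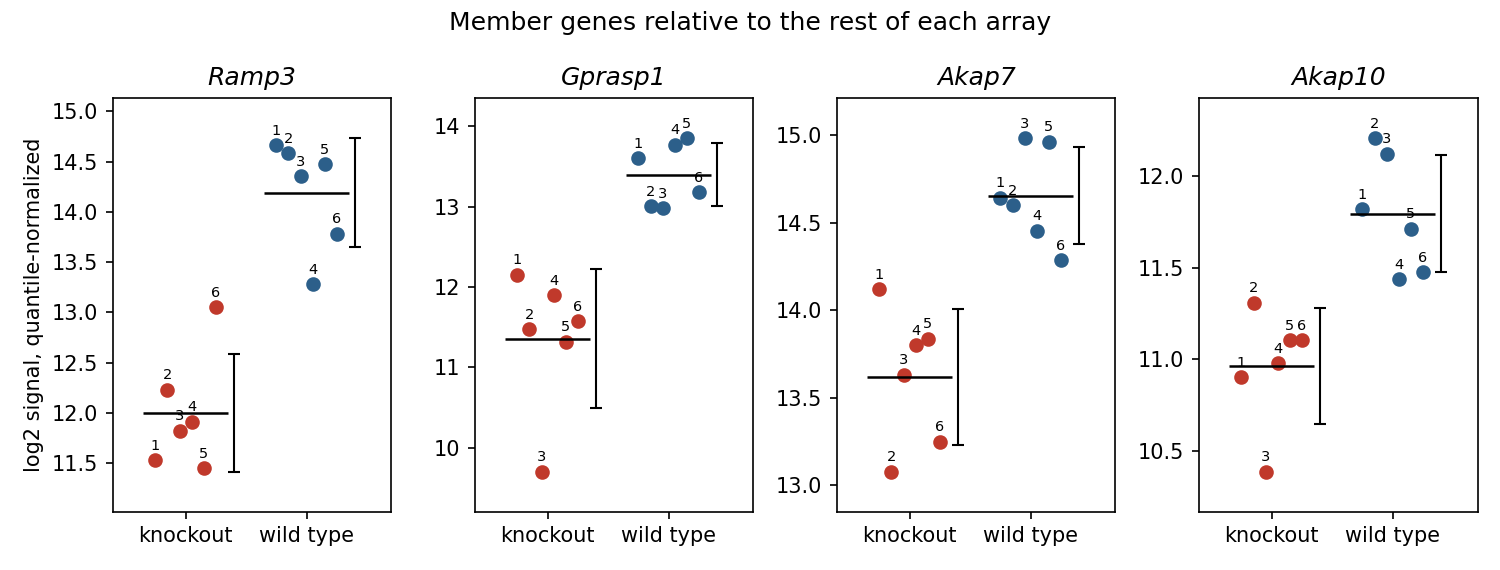
Quantile-normalized log2 signal (y axis, a separate range in each panel) of the 4 genes on 6 knockout (red) and 6 wild-type (blue) arrays; numbers are replicates, lines are group means and bars are 1 SD. In each panel every knockout array lies below every wild-type array, with the widest gap in Gprasp1 (0.83) and the narrowest in Akap10 (0.13).

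All 4 probes were above background on every array, with signal-over-noise scores of at least 9.09 in the knockout and at least 5.74 in the wild type. The scanner's error for a single spot corresponded to a median of 0.04 log2 units for Ramp3, 0.06 for Gprasp1, 0.05 for Akap7 and 0.12 for Akap10. The pooled SDs of the quantile-normalized signal between arrays of a group were 0.57, 0.67, 0.34 and 0.32 log2 units in the same order. On this scale the anchor genes varied less within groups than most tested probes, which include probes below background on some arrays. A smaller pooled SD than that of Akap7 was found in 12.6% of tested probes, and a smaller one than that of Akap10 in 10.8%. For Ramp3 and Gprasp1 the shares were 37.8% and 48.4%.

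The sign of the anchor genes' difference depended on the scale. In the signal as deposited, with no scaling between arrays, the knockout median was below the wild-type median for the receptor accessory genes and above it for the anchor genes, the groups overlapped for all 4, and none of the 4 passed the test. The signal of Ramp3 ran from 3523 through a median of 5843 to 10625 intensity units in the knockout and from 3913 through 8991 to 20923 in the wild type. That of Gprasp1 ran from 1386 through 4535 to 5610 in the knockout and from 3170 through 5740 to 7297 in the wild type. Both medians were lower in the knockout although those arrays were brighter as a whole. The signal of Akap7 ran from 7950 through 21076 to 32857 in the knockout and from 7087 through 13456 to 21160 in the wild type. That of Akap10 ran from 2282 through 2530 to 4830 in the knockout and from 1077 through 1643 to 4255 in the wild type. The anchor medians were thus higher in the knockout, and wild-type replicate 2, which had the highest median signal of its group, was the brightest wild-type array for all 4 genes.

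**Figure D2:**
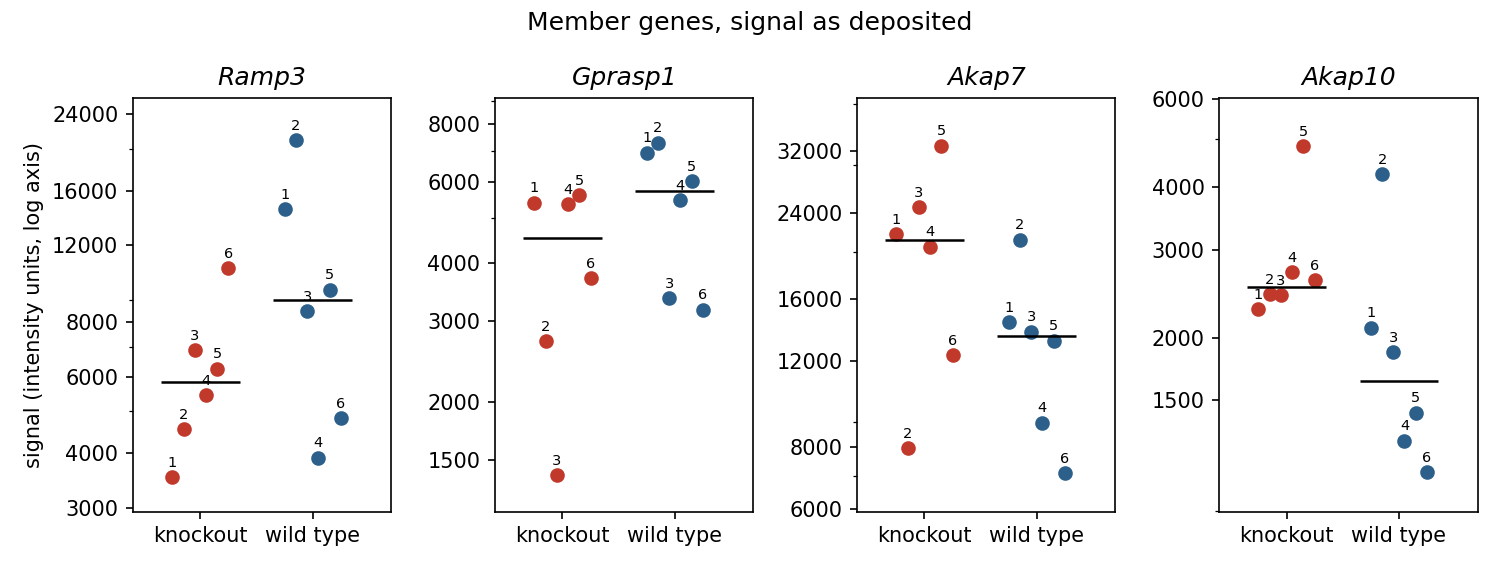
Signal as deposited (y axis, intensity units on a log axis, a separate range in each panel) of the 4 genes on 6 knockout (red) and 6 wild-type (blue) arrays; numbers are replicates and lines are group medians. The groups overlap in all panels, with the lower median in the knockout for Ramp3 and Gprasp1 and in the wild type for Akap7 and Akap10.

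On this unscaled log2 signal the differences between knockout and wild type were -0.59 ± 0.44 for Ramp3, -0.49 ± 0.41 for Gprasp1, 0.55 ± 0.40 for Akap7 and 0.65 ± 0.37 for Akap10 (SE, n = 6 each). The median over all tested probes was 1.39, or 2.62-fold brighter in the knockout, and 11.9% of tested probes were dimmer there. Each of the 4 genes lay below that median. Limma called 0 of the 4 genes on this scale, where 59.9% of tested probes passed in either direction. With arrays scaled to the hybridization controls it called 0 of 4 as well, where 61.2% passed. With the scanner software's normalized signal it called Ramp3 and Gprasp1, both lower, where 8.39% of tested probes were called lower and 42.6% in either direction. With the in vitro transcription controls and in the authors' deposited table, whose groups were scaled separately, it called Akap10 alone, as higher in the knockout, where 69.1% and 63.1% of tested probes were called higher and 70.1% and 65.5% in either direction. Genotype and the brightness of the arrays cannot be told apart in this design. The sign for Akap7 and Akap10 therefore holds only relative to the rest of the array. For Ramp3 and Gprasp1 the sign stayed negative, but with in vitro transcription controls they stood at -0.27 ± 0.38 and -0.18 ± 0.37 (SE). These 2 values were smaller than their errors.

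**Figure D3:**
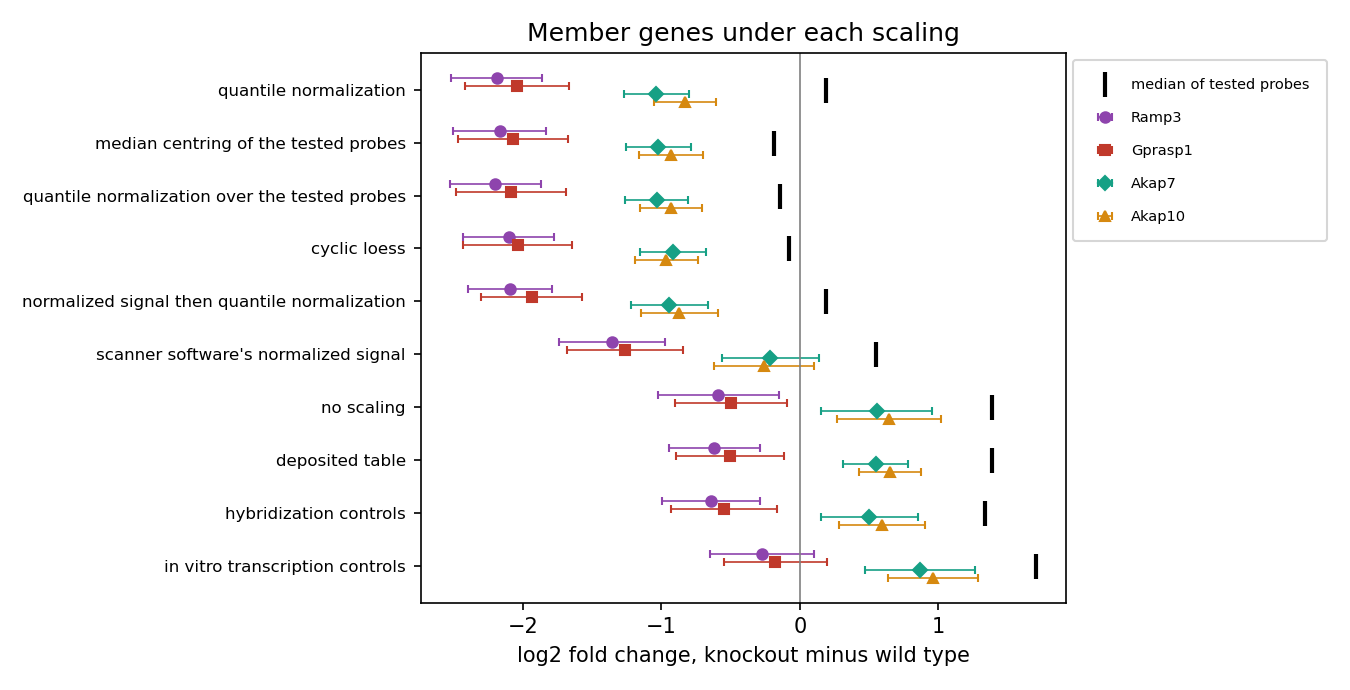
Log2 fold change (x axis, knockout minus wild type, ± SE from limma) of the 4 genes under 10 scalings of the arrays (y axis), with the median of the tested probes as a black tick. Akap7 and Akap10 stand at 0.55 and 0.65 with no scaling and at -1.04 and -0.83 after quantile normalization, and all 4 genes stand below the tick under each scaling.

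The receptor accessory genes were also set against the anchor genes within each array. The log2 signal of one probe minus that of another is free, by construction, of any factor applied to the whole array, and only its change between groups is read here, not the level of one probe against another. From wild type to knockout the Ramp3 signal changed by -1.14 ± 0.42 relative to Akap7 and by -1.23 ± 0.30 relative to Akap10, and the Gprasp1 signal by -1.05 ± 0.43 and -1.14 ± 0.38 (SE, n = 6 each). These are losses of 2.07-fold to 2.35-fold relative to the anchors, with overlap between groups in all 4 pairings. Without knockout replicate 3 the change of Gprasp1 relative to Akap7 was -0.68 ± 0.25, so that array moved the value by more than 1.5 times. Ramp3 minus Akap7 had a median of -1.87 in the knockout, between -2.62 and -0.21, and of -0.51 in the wild type, between -1.20 and 0.02. Knockout replicates 2 and 6 lay within the wild-type range in that pairing. Gprasp1 minus Akap7 had a median of -1.97 in the knockout, between -4.15 and -1.55, and of -1.15 in the wild type, between -2.03 and -0.71. In that pairing 4 of 6 knockout arrays, replicates 1, 2, 4 and 6, lay within the wild-type range.

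Within each pair the changes were smaller than their errors. Ramp3 changed by -0.09 ± 0.53 relative to Gprasp1, and Akap7 by -0.09 ± 0.28 relative to Akap10 (log2 units, SE, n = 6 each). Ramp3 minus Gprasp1 was highest on knockout replicate 3, at 2.32, where Gprasp1 was low, and without that array the change was -0.42 ± 0.47. With each array left out in turn it lay between -0.42 and 0.17, and that of Akap7 relative to Akap10 between -0.22 and 0.11. Errors of this size do not show that the genes of a pair changed alike. The scanner software divides the upper and lower blocks of an array by separate factors, whose ratio ran from 0.656 to 1.68 over the 12 arrays. Akap10 lay in the upper block and the other 3 probes in the lower. With the software's factors applied, the change relative to Akap10 was -1.10 ± 0.31 for Ramp3, -1.001 ± 0.43 for Gprasp1 and 0.05 ± 0.41 for Akap7.

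**Figure D4:**
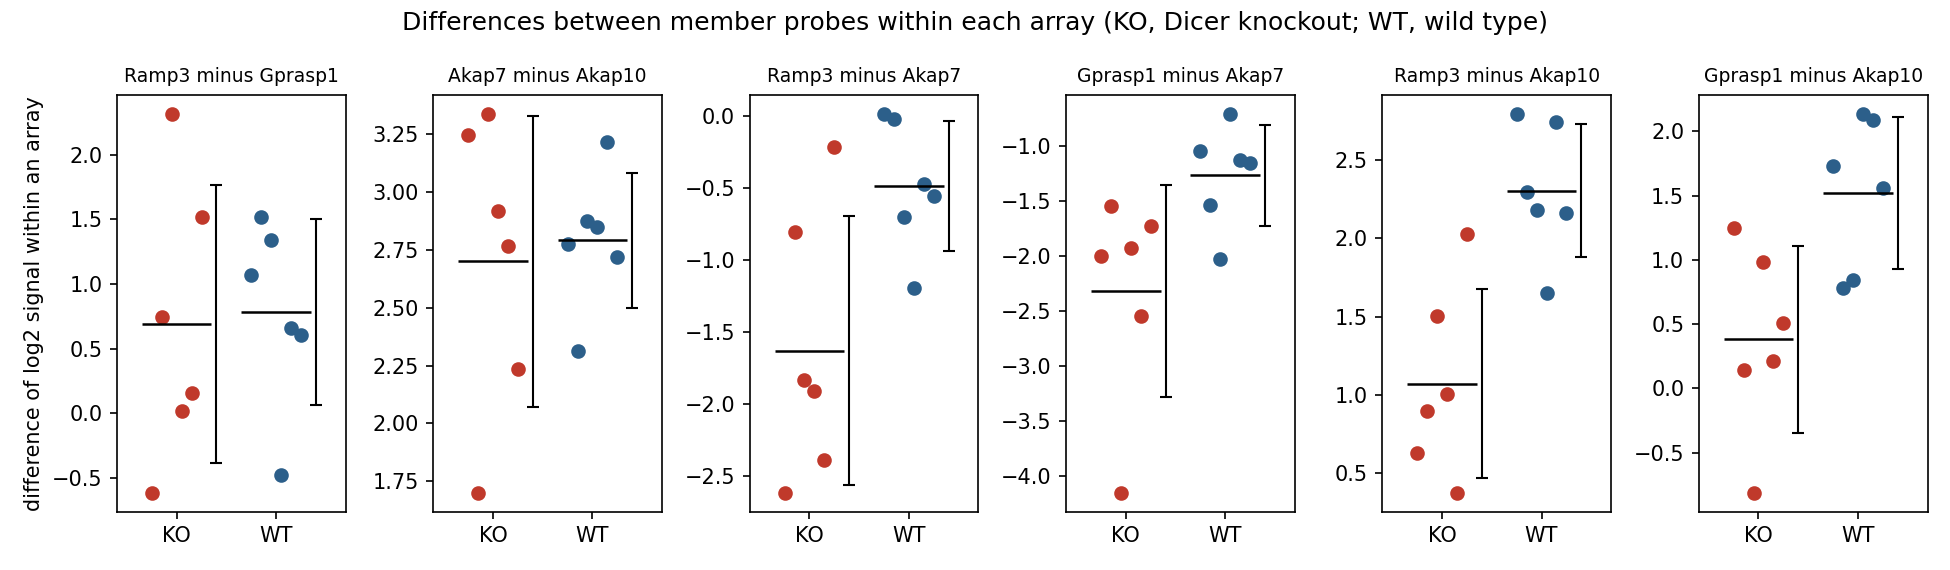
Difference of unscaled log2 signal between 2 probes within an array (y axis, a separate range in each panel) on 6 knockout (KO) and 6 wild-type (WT) arrays; lines are means and bars are 1 SD. The 4 panels that set a receptor accessory gene against an anchor gene have lower knockout means, with differences of -1.23 to -1.05, and the other 2 panels differ by -0.09 each.

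Set among all tested probes, the receptor accessory genes lay near the lower end and the anchor genes in the lower part of the distribution. After quantile normalization 187 of 6088 tested probes (3.07%) had a lower log2 fold change than Ramp3 and 229 (3.76%) a lower one than Gprasp1. For Akap7 and Akap10 the numbers were 1135 (18.6%) and 1426 (23.4%). On the unscaled signal the shares were 4.57%, 5.44%, 26.2% and 28.6% in the order Ramp3, Gprasp1, Akap7 and Akap10. The 4 genes were also placed, after quantile normalization, among the 2979 probes above background on all 12 arrays, as they were. There the shares were 3.12%, 3.93%, 26.7% and 33.6% in the same order. The anchor genes thus stood less far down among these probes than among all tested probes.

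**Figure D5:**
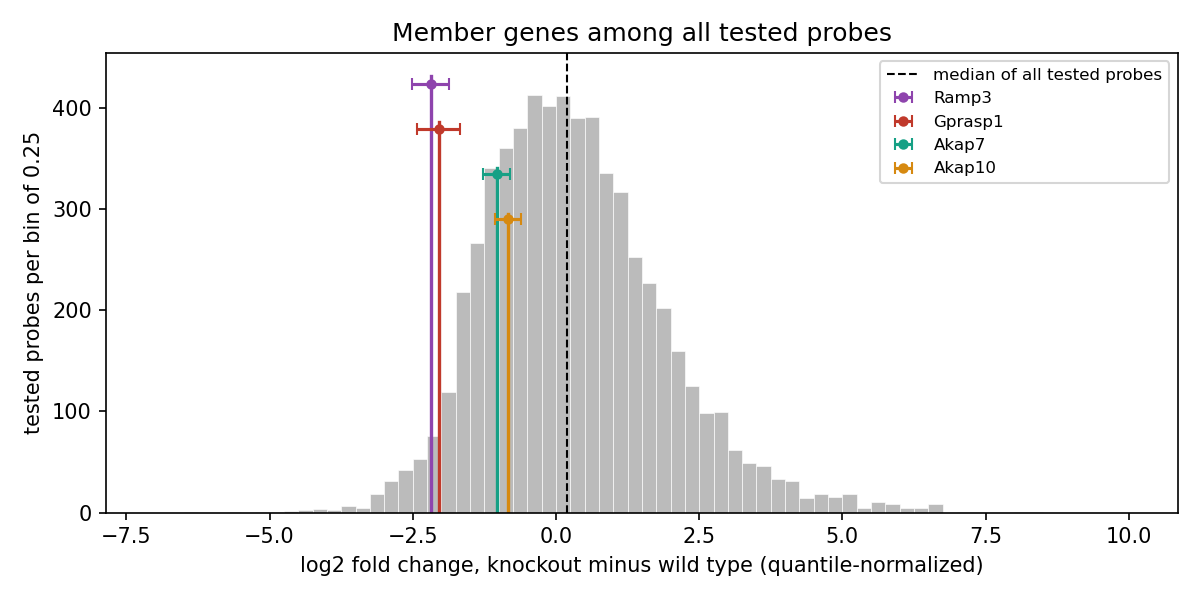
Number of tested probes (y axis) per bin of log2 fold change (x axis, knockout minus wild type, quantile-normalized), with the 4 genes as coloured lines with ± SE and the median of all tested probes (0.19) as a dashed line. Ramp3 and Gprasp1 stand in the lower tail at -2.19 and -2.04, and Akap7 and Akap10 at -1.04 and -0.83.

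The profiles of the 4 genes were compared with those of the other named probes that passed the detection filter, 68 for each gene, by the root-mean-square difference of log2 signal over the 12 arrays after each probe was centred on its own mean. This centring kept the difference between knockout and wild type in each profile. Probes with a like fold change are therefore near in part by construction, and a small distance does not show likeness within a group. For Ramp3 the nearest were Eola1 at 0.52, the mitochondrial protein Coa3 at 0.61 and Hsd3b4 at 0.66, where the median over the 68 probes was 1.48. For Gprasp1 they were Eola1 at 0.49, Mapk1ip1 at 0.59 and the kinase Wnk4 at 0.601, with a median of 1.54. For Akap7 the nearest probe was Akap10 at 0.44, followed by the dipeptidyl peptidase Dpp9 at 0.44 and the nucleolar GTPase Gnl2 at 0.49, with a median of 1.02. For Akap10 the order was Rnf112 at 0.38, Tcp10b at 0.38 and Mprip, a protein that binds myosin phosphatase, at 0.39, with Akap7 in position 5 at 0.44 and a median of 0.93. Ramp3 and Gprasp1 were 0.81 apart and were not among each other's 10 nearest. Within groups the signals of Akap7 and Akap10 gave Pearson r = -0.398 in the knockout and 0.564 in the wild type. Neither passed a threshold of 0.05. Without the 2 arrays farthest from the median of Akap7, r was 0.55 in the knockout and 0.74 in the wild type. The sign in the knockout therefore rests on those arrays, and these values from few arrays were not tested.

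Other genes of the pathway were mostly out of reach. Of 128 symbols in 5 lists of receptor accessory proteins, calcitonin-family receptors and ligands, anchoring proteins, protein kinase A subunits and cyclic AMP signalling, 8 had a named probe and 4 passed the detection filter, namely the 4 genes described. So beyond these 0 genes could be tested in either direction. Ramp1, which pairs with the calcitonin receptor-like receptor to form the receptor for calcitonin gene-related peptide, was above background on 1 knockout and 0 wild-type arrays, with signals of 93.2 to 658 and 192 to 593. The sorting adaptor Gga1 was not above background on any array, with signals of 192 to 398 in the knockout and 187 to 665 in the wild type. Akap4, the anchor of the sperm tail, was likewise not above background, at 49.1 to 242 and 102 to 533. The probe of Gnas, the locus of the stimulatory G protein subunit and of several other transcripts, read 128 to 262 and 121 to 430.5 and was not above background on any array. The lists of protein kinase A subunits and of calcitonin-family receptors and ligands, which include the partners of Ramp3, had 0 named probes.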

How the data were processed

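Total RNA of mature oocytes was amplified to digoxigenin-labelled cRNA, per the labels' protocols, and hybridized to Mouse Genome Survey Microarrays V 1.0 read with AB1700 software version 1.1.1, per the file headers. In the deposited scanner files a spot has a linear intensity with its error, the software's normalized intensity, and a score of signal over noise; the other deposited value used is a quality flag. The authors' deposited series table holds linear intensities. Quantile-normalizing the signals separately in each group gave 93.8% of its values to within 1%, and doing so over all 12 arrays gave 0.0205%, so its groups keep separate scales.

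Flags of 5000 and above made a spot missing, and control spots were left out. The signals of 33012 probes were quantile-normalized and log2-transformed with no offset. Probes with a score of 3 or more on at least 6 of 12 arrays (6088) were compared in limma 3.58.1 (R 4.3.3), two-sided, with Benjamini-Hochberg adjustment over all of them at 0.05; the fit was tested on simulated data. Of the tested probes 68 had a missing spot, none of them of the 4 genes. Symbols came from RefSeq transcript accessions (GRCm38.p6), which named 311 probes (0.942%). Genes named beyond the 4 were list members with a probe and the 3 nearest profiles. The genes and lists were chosen with earlier results of these data known. Alternatives were 21 listed settings (scalings, filters, each array left out) and 2 added after seeing the data. Figures used matplotlib 3.10.9. The number of arrays limits the precision.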

Additional observations from a re-analysis of the deposited data

Results flagged for a closer look

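In the 8 groups of 6 values that the 4 genes give, a single array stood far away from its group in 1 case, and chance alone picks about 1 group in 20. Gprasp1 stood at a normalized log2 signal of 9.70 on knockout replicate 3, against 11.32 to 12.15 on the other knockout arrays, a gap of 0.66 of the group's range. The deposited signal of that spot was 1386 intensity units, against 2710 to 5610, with a signal-over-noise score of 9.09, a scanner error of 11.0% and no quality flag. Akap10 was also lowest of its group on that array, at 10.39, with a smaller gap to the next.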

How the results depend on the processing

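Relative to the rest of the array, all 4 genes were lower in the knockout under quantile normalization, median centring, cyclic loess and both other detection filters, and 4 were called each time except with no filter (3, without Akap10). Scalings that leave the knockout arrays brighter, in full or in part, moved them. The median log2 fold change over all tested probes was 0.55 with the scanner software's normalized signal, against 1.39 with no scaling. For Ramp3, Gprasp1, Akap7 and Akap10 in this order the log2 fold changes were -1.36, -1.26, -0.21 and -0.26 with the scanner software's normalized signal, -0.59, -0.49, 0.55 and 0.65 with no scaling, and -0.62, -0.50, 0.55 and 0.65 in the authors' deposited table. They were -0.64, -0.55, 0.502 and 0.59 with hybridization controls and -0.27, -0.18, 0.87 and 0.96 with in vitro transcription controls. Those 5 settings called 2 (Ramp3 and Gprasp1), 0, 1 (Akap10, higher), 0 and 1 (Akap10, higher) of the genes, where 42.6%, 59.9%, 65.5%, 61.2% and 70.1% of tested probes passed in either direction. The mean of Ramp3 and Gprasp1 minus that of Akap7 and Akap10 was -1.18. Filters cannot move it and a factor per array cancels in it (-1.14 under all such scalings). It was -1.13 with cyclic loess, -1.07 with the software's signal and -1.33 to -1.05 with an array left out. With each array left out in turn, Ramp3 lay between -2.39 and -2.09, Gprasp1 between -2.20 and -1.71, Akap7 between -1.13 and -0.93 and Akap10 between -0.91 and -0.71, and 4 genes were called each time, with 2564 to 2998 calls over all probes. The count over all probes was 3066 in the main setting and 1906 among the 2979 probes above background on all 12 arrays, where fewer probes were tested. No paired analysis was possible because the titles give each array a number of its own. Against 1705 probes called higher and 1361 lower after quantile normalization, the numbers were 1393 and 1796 with median centring, 1421 and 1743 with quantile normalization of the tested probes, 2080 and 511 with the software's signal, 3539 and 107 without scaling, 3842 and 146 in the deposited table, 3591 and 135 with hybridization controls and 4204 and 62 with in vitro transcription controls. The lowest signal-over-noise score of the 4 genes was 5.74. On wild-type arrays the Akap10 signal fell to 1077 intensity units, where the undetected probe of Gga1 read up to 665. No background offset was tried, so an effect of background on the fold changes was not tested.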

Other observations

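Within each group of 6 arrays, the normalized log2 signals of the 4 genes were compared in 12 pairings, and none passed a threshold of 0.05. The largest relation was between Ramp3 and Akap7 in the knockout (Pearson r = -0.78, exact permutation p = 0.0583, adjusted 0.480, and Spearman rho = -0.83, exact permutation p = 0.0583, adjusted 0.700). Without the 2 arrays farthest from the median of Ramp3, r was -0.95, a value from few arrays that was not tested. In the wild type the same pair gave r = 0.59 (exact permutation p = 0.200, adjusted 0.480), which turned to -0.89 without the 2 farthest arrays, so its sign rests on those arrays. The same step turned Gprasp1 and Akap10 in the knockout from 0.72 to -0.60. It turned Ramp3 and Akap10 in the wild type from 0.75 to -0.22, and Akap7 and Akap10 in the knockout from -0.40 to 0.55. It also turned Ramp3 and Gprasp1, from 0.06 to -0.13 in the knockout and from -0.23 to 0.31 in the wild type. Some other pairs kept their sign. Ramp3 and Gprasp1, which differed most between the groups, gave r = 0.06 in the knockout (exact permutation p = 0.890, adjusted 0.932) and -0.23 in the wild type (exact permutation p = 0.624, adjusted 0.831).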
